A study of Homo sapiens with 4 samples.

Results

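EPAS1, which encodes the oxygen-sensitive transcription factor subunit HIF-2α, and the hypoxia-responsive genes BNIP3, LOX, VEGFA and STC2 were followed in SH-SY5Y cells given origamicin or its solvent. SH-SY5Y, an established human line, comes from a neuroblastoma, a tumour of the sympathetic nervous system. Per the labels, origamicin inhibits protein disulfide isomerase, an endoplasmic reticulum enzyme that makes and reshuffles the disulfide bonds of newly made proteins. Treated cultures had origamicin at 30 µM for 24 h and mock cultures had methanol for 24 h, with 2 Affymetrix Human Gene 2.0 ST arrays in each group. The 5 genes were taken by symbol from the array's probe annotation, out of 14884 named genes, and all 5 were among the 11883 genes bright enough to test. Each has 1 named probe set, so no choice between probe sets was needed. They were chosen because they were lower after origamicin in these same arrays. Their differences are therefore described and not tested.

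Hypoxia-inducible factors (HIFs) pair an oxygen-labile α subunit with a stable β subunit, ARNT or ARNT2, and bind short elements with the core ACGTG or GCGTG. In oxygenated cells, EGLN prolyl hydroxylases mark the α subunit for the VHL ubiquitin ligase, so most of its control acts on the protein, which arrays do not read. HIF-2α is known for its part in catecholamine-producing and neural crest-derived cells, neuroblastoma included. Among its targets and those of HIF-1α, BNIP3 is a receptor on the outer mitochondrial membrane that brings mitochondria to the autophagosome. LOX oxidises lysines of collagen and elastin so that fibres crosslink. VEGFA is the main growth factor of blood vessel endothelium, and STC2 is a glycoprotein that blocks the protease PAPP-A. The last 3 are secreted proteins that carry disulfide bonds.

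Since the 5 genes were lower together, the 250 bases before their RefSeq transcription starts (GRCh38.p14) were searched for the HIF core on both strands. Windows were matched for 4 of the 5 genes: EPAS1, BNIP3, LOX and STC2. Of LOX's 3 listed starts, the one farthest upstream is shown. Each window is written 5′ to 3′ on the gene's strand, with every ACGTG or GCGTG of either strand in capitals. They are EPAS1 at chr2:46297157-46297406 (plus strand), BNIP3 at chr10:131981924-131982173 (minus strand), LOX at chr5:122078260-122078509 (minus strand) and STC2 at chr5:173328415-173328664 (minus strand).
EPAS1: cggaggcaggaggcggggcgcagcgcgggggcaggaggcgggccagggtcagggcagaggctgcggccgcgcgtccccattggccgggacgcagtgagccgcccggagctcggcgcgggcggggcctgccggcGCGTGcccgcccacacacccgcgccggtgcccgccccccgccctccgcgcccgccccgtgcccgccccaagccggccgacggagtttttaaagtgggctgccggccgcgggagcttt
BNIP3: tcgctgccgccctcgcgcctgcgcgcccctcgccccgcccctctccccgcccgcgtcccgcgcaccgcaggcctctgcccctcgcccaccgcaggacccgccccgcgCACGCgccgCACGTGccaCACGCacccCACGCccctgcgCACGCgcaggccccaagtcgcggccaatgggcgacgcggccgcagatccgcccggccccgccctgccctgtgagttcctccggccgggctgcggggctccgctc
LOX: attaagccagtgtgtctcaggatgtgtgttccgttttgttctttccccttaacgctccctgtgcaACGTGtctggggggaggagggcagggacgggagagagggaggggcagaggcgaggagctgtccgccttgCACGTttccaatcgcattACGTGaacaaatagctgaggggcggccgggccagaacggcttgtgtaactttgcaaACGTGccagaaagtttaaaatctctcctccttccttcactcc
STC2: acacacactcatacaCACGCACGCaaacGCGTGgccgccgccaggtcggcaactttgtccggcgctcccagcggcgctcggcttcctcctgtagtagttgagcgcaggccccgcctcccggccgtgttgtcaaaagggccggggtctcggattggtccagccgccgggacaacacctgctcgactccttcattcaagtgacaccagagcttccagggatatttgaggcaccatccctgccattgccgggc
The EPAS1 window held 1 match, GCGTG starting 117 bases before the start. BNIP3 held 6 matches between 143 and 104 bases before the start. Of these, 2 were the strands of a single CACGTG. The other 4 were GCGTG on the strand opposite to the one written, and so are printed as CACGC. LOX held 4, all ACGTG, at 185, 116, 98 and 42 bases. The windows of its other 2 starts overlap and held the same 2 matches, 1 ACGTG and 1 GCGTG. The start shown was not matched to the transcript of the probe set. STC2 held 3 GCGTG at 235, 231 and 222 bases, the first pair overlapping by a base. Such matches are common. At least 1 was present in 43.2% of all 35116 promoter windows of this length and in 53.3% of the windows of genes tested, and, of the latter, 3 or more in 10.5% and 6 or more in 0.95%. The windows of EPAS1, BNIP3, LOX and STC2 were 80.8%, 81.6%, 55.2% and 63.6% G or C, against a median of 63.6% for genes tested. A match is not a measured binding site.

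EPAS1 had the largest difference of the 5. Its log2 expression was 9.43 and 9.36 on the mock arrays and 8.72 and 8.70 on the origamicin arrays. Both treated arrays lay below both mock arrays, with a gap of 0.64 between the nearest arrays of the groups and at most 0.07 between the arrays of a group. The means were 9.39 ± 0.05 and 8.71 ± 0.02 (SD, n = 2 each), a log2 change of -0.69 ± 0.07 (moderated SE of the limma fit, as for every log2 change given here). On the linear scale this is 1.61-fold lower, or 62.2% of the mock level. Ordered from the lowest change upward, EPAS1 stood at place 35 of the 11883 genes tested.

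Of the targets, BNIP3 read 10.66 and 10.62 in mock (mean 10.64 ± 0.03 SD) and 10.13 and 10.17 in treated cells (10.15 ± 0.03). The log2 change was -0.49 ± 0.06, or 1.40-fold lower, which left 71.2% of the mock level. The arrays of each group were within 0.04 of each other, so the groups were separated by a gap of 0.45. LOX read 6.82 and 6.98 in mock (6.90 ± 0.11) and 6.46 on both treated arrays (6.46 ± 0.0018), a log2 change of -0.45 ± 0.08 (1.36-fold lower, 73.4% of mock). Its mock arrays differed by 0.16, the widest spread within a group among the 5 genes, and the gap between groups was 0.37. The size of the LOX difference therefore varied with the mock array used: -0.53 without mock replicate 1 and -0.37 without mock replicate 2.

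STC2 read 6.71 and 6.61 in mock (6.66 ± 0.07) and 6.30 and 6.20 in treated cells (6.25 ± 0.08). Its log2 change was -0.41 ± 0.08, or 1.33-fold lower, with arrays of a group at most 0.11 apart and a gap of 0.31 between the groups. VEGFA read 7.04 and 7.14 in mock (7.09 ± 0.07) and 6.71 and 6.75 in treated cells (6.73 ± 0.03), a log2 change of -0.36 ± 0.07 (1.28-fold lower, 77.9% of mock). VEGFA had the smallest difference and the narrowest gap between groups, 0.29. In all 5 genes the groups did not overlap, and the gap between groups was wider than the distance between the arrays of either group. The changes had a median of -0.45, and those of BNIP3, LOX, STC2 and VEGFA differed from one another by at most 1.35 times the SE of the difference, so no order is drawn among these 4 genes. Over all genes tested, the treated arrays lay below both mock arrays for 25.8%. Nothing is read from that comparison, because the 5 genes were picked on this contrast. BNIP3, LOX, STC2 and VEGFA stood at places 132, 176, 232 and 341 from the lowest change. All 5 genes were read well above the brightness filter of 3.82: the lowest of their values, for STC2, was 2.37 above it. Levels are not compared between genes, because each probe set has its own response. In a culture read in bulk, fewer cells expressing a gene and less RNA per cell cannot be told apart.

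**Figure D1:**
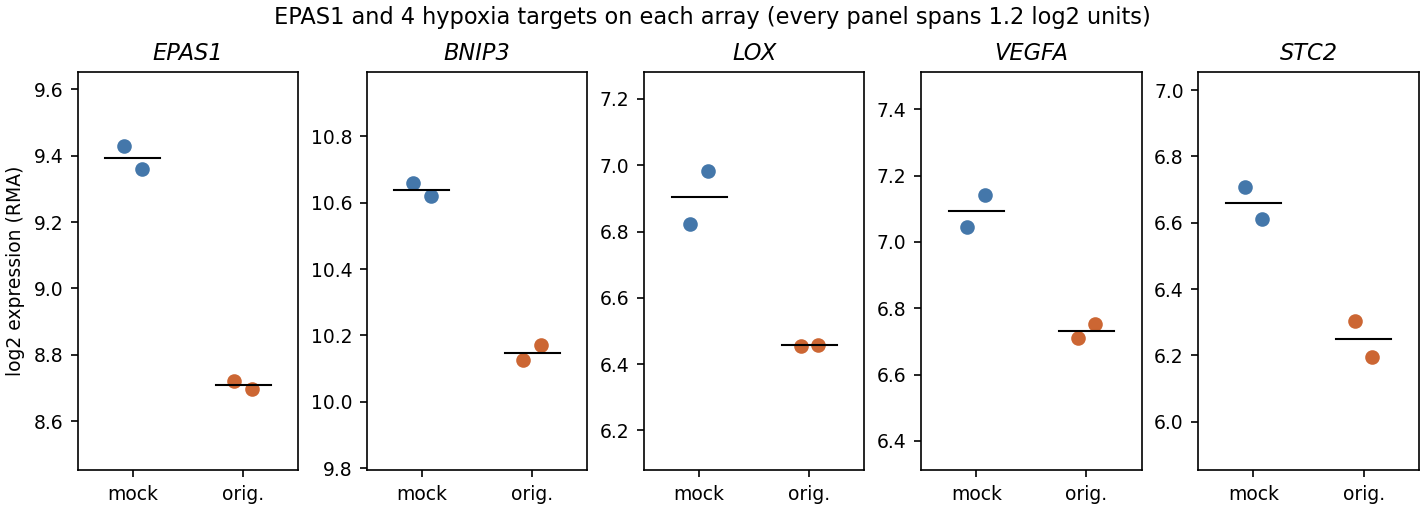
Log2 expression (RMA) of EPAS1, BNIP3, LOX, VEGFA and STC2 on each of the 4 arrays; points are arrays, horizontal lines are group means of 2 arrays, and each panel has its own level but the same span. Both origamicin arrays lie below both mock arrays in every panel, by the widest gap in EPAS1 (0.64) and the narrowest in VEGFA (0.29).

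**Figure D2:**
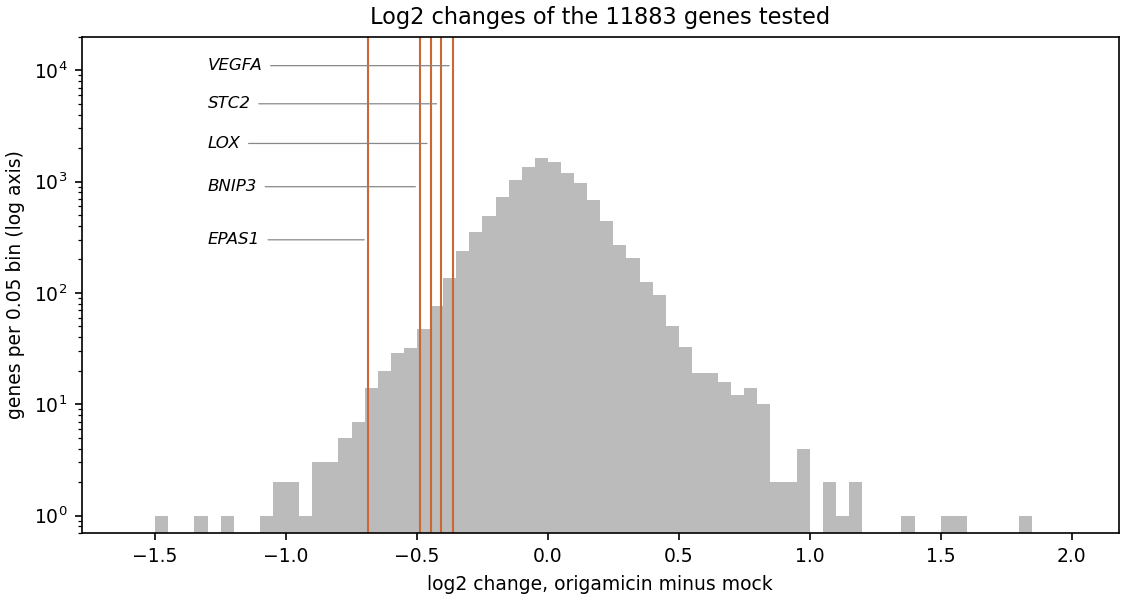
Histogram of the log2 change (origamicin minus mock) of the 11883 genes tested, in bins of 0.05 with a logarithmic count axis; vertical lines mark the 5 genes. All 5 lie in the lower tail, between -0.69 (EPAS1) and -0.36 (VEGFA).

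The next question was how the rest of the HIF machinery stood beside EPAS1. In the limma fit over all 11883 genes, no gene passed an adjusted p of 0.05 (0% called), while 1001 genes (8.42%) were lower and 949 (7.99%) higher at an unadjusted p under 0.05. With an intensity trend in the variance model, 257 genes (2.16%) fell and 254 (2.14%) rose at an adjusted p under 0.05. The β subunits showed no difference beyond their error: ARNT stood at 0.03 ± 0.07 (95% interval -0.15 to 0.22) and its neural relative ARNT2 at 0.04 ± 0.06 (-0.13 to 0.21). HIF1A, HIF3A, VHL, EGLN2 and HIF1AN were not analysed here.

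Of the 14 genes listed as oxygen sensors and HIF regulators, 7 were tested, and none passed limma's adjusted threshold with or without the trend. The prolyl hydroxylases, which are themselves known to be induced by HIF, were on the lower side. EGLN1 read 7.78 and 7.58 in mock and 7.35 and 7.36 in treated cells (-0.33 ± 0.09, limma adjusted p = 0.22, unadjusted 0.019). EGLN3 read 5.09 and 5.23 in mock and 4.99 and 4.84 in treated cells (-0.24 ± 0.09, limma adjusted p = 0.32, unadjusted 0.057). The mock arrays of EGLN1 differed by more than those of EPAS1, and neither gene's groups overlapped. The coactivators CREBBP (0.24 ± 0.08, adjusted p = 0.27) and EP300 (0.21 ± 0.08, adjusted p = 0.33) lay on the higher side. CUL2, the scaffold of the VHL ligase (-0.0004 ± 0.07), the deacetylase SIRT1 (0.01 ± 0.08) and the deubiquitinase USP20 (-0.12 ± 0.08) had intervals that spanned 0. The 95% intervals of EGLN3 (-0.49 to 0.01) and EP300 (-0.01 to 0.43) spanned 0 too.

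**Figure D3:**
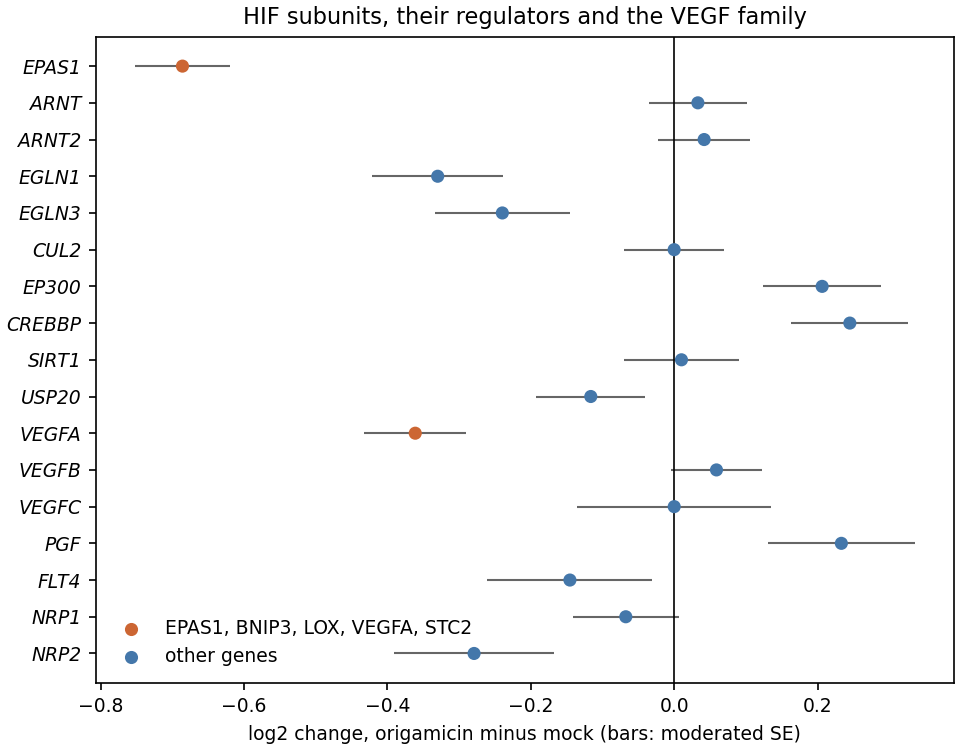
Log2 change (origamicin minus mock) with its moderated SE for EPAS1, the tested HIF subunits and regulators, VEGFA and the tested VEGF ligands and receptors. EPAS1 at -0.69 and VEGFA at -0.36, both picked for being lower, are the lowest of the 17 genes shown. ARNT and ARNT2 lie within their SE of 0.

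Other hypoxia-induced genes were mostly lower too. Without BNIP3, LOX, VEGFA and STC2, 25 of the 38 other genes on the hypoxia target list were tested. Of these, 22 were lower and 3 higher (RORA, JMJD6 and ANGPTL4), with a median log2 change of -0.22, against -0.0072 over all genes tested and 52.1% lower by any amount. The groups did not overlap for 16 on the lower side (25.8% of all genes) and 2 on the higher side (22.7%). None passed limma's adjusted threshold. At an unadjusted limma p under 0.05, 11 were lower (8.42% of all genes) and 1 higher (7.99%). With an intensity trend 7 fell (2.16% of all genes) and 1 rose (2.14%). This list describes the genes around the 5 and is no independent evidence, since a like shift had already been seen in these arrays.

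The 4 listed genes with the smallest p were DDIT4, HK2, RORA and VLDLR. DDIT4, an inhibitor of mTORC1, stood at -1.25 ± 0.09 (limma adjusted p = 0.095; 0.0019 with an intensity trend). Hexokinase HK2, the entry step of glycolysis, stood at -0.90 ± 0.09 (0.095; 0.0031). Both had larger differences than EPAS1. VLDLR, a lipoprotein and reelin receptor, stood at -0.47 ± 0.07 (0.15; 0.013), a size like that of BNIP3. The nuclear receptor RORA went the other way. It read 4.86 and 4.88 in mock and 5.49 and 5.41 in treated cells, a log2 change of 0.58 ± 0.07 (0.10; 0.047). Of the 9 tested glycolysis genes, all were lower (median -0.39), and HK2, PGAM1 (-0.62 ± 0.07), LDHA (-0.45 ± 0.07) and PGK1 (-0.39 ± 0.07) led them. HK2, LDHA and PGK1 are also hypoxia targets counted above, so the lists overlap. The groups did not overlap for 8 of the 9 (25.8% of all genes were apart on the lower side). None passed limma's adjusted threshold, and with an intensity trend 5 fell (2.16% of all genes).

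**Figure D4:**
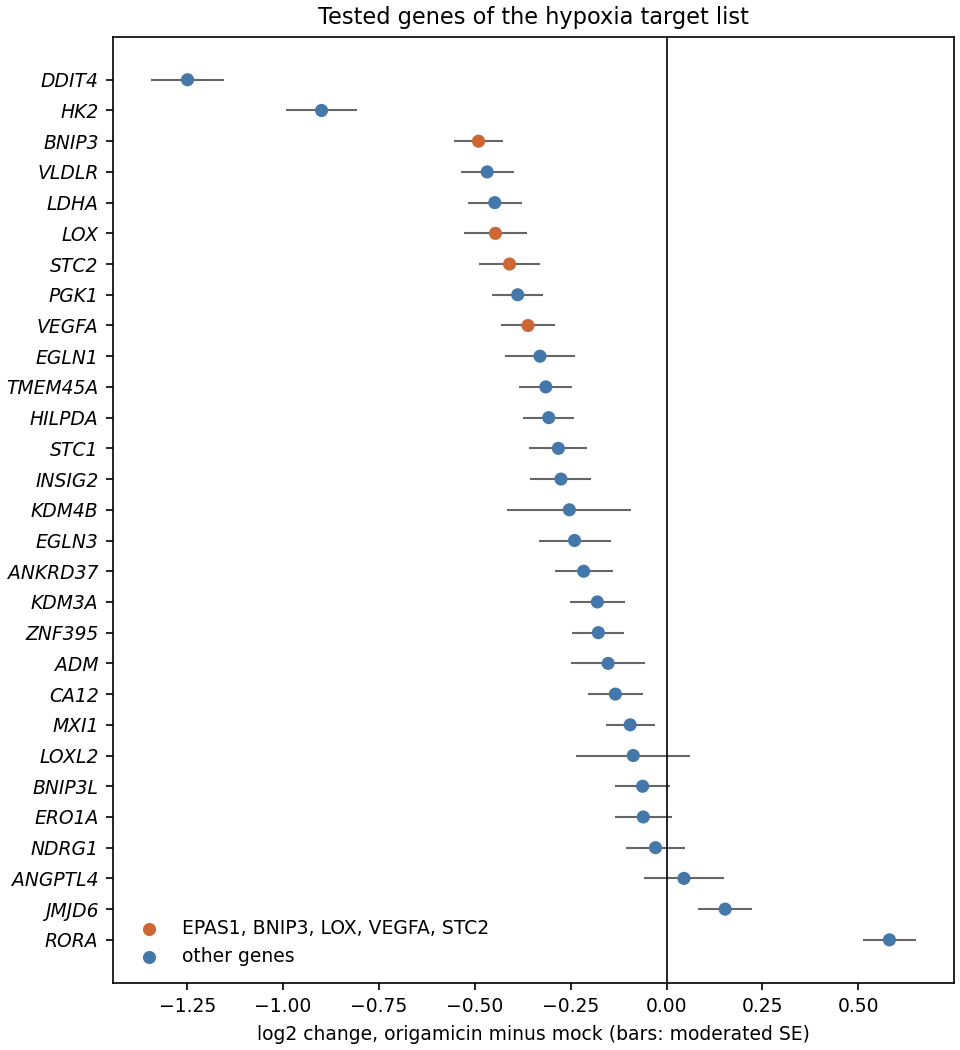
Log2 change (origamicin minus mock) with its moderated SE for each tested gene of the hypoxia target list, ordered by change, with BNIP3, LOX, STC2 and VEGFA in orange. Only DDIT4 and HK2 lie lower than BNIP3, and RORA, JMJD6 and ANGPTL4 are the 3 genes above 0.

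Genes often named as preferring HIF-2α did not share one direction. Of 16 listed, 11 were tested, with 6 lower and 5 higher and a median of -0.04. The chemokine receptor CXCR4 read 10.75 and 10.82 in mock and 10.02 and 10.13 in treated cells, a log2 change of -0.71 ± 0.07 (limma adjusted p = 0.095; 0.0019 with an intensity trend). That difference is of the size of EPAS1's own. The vessel-destabilising ligand ANGPT2 (-0.52 ± 0.13; adjusted p = 0.20, and 0.11 with the trend) and DLK1, a Notch-related regulator of differentiation (-0.32 ± 0.06; 0.18 and 0.015), were lower. IGFBP3, a carrier of insulin-like growth factors, was higher at 0.66 ± 0.07 (0.10 and 0.022).

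VEGFA had the lowest change among the 7 VEGF family genes bright enough to test. It was picked for being lower in these arrays, so nothing is read from its place. Of the ligands, VEGFB stood at 0.06 ± 0.06, VEGFC at -0.0003 ± 0.14 and PGF at 0.23 ± 0.10. Of the receptors, NRP2 stood at -0.28 ± 0.11, FLT4 at -0.15 ± 0.11 and NRP1 at -0.07 ± 0.07. None of these 6 passed limma's adjusted threshold, and their smallest adjusted p was 0.33 (NRP2). With single arrays left out, several of these values moved by over 1.5 times. PGF ran from 0.11 to 0.35, VEGFC from -0.18 to 0.18, NRP2 from -0.42 to -0.14, FLT4 from -0.29 to -0.0011 and NRP1 from -0.12 to -0.02. The main VEGFA receptors of endothelium, FLT1 and KDR, were dim, at 3.45 to 3.82 and 3.25 to 3.67, and were not tested.

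The tested relatives of BNIP3 and LOX stood at smaller or opposite values, though differences between genes were not tested. BNIP3 and LOX were picked for being lower, so nothing is read from that contrast. BNIP3L, the closest relative of BNIP3 and also a mitophagy receptor, read 11.05 and 11.16 in mock and 11.05 and 11.03 in treated cells (-0.06 ± 0.07). Its groups overlapped. Of the 14 mitophagy receptors and LC3 family genes tested besides BNIP3, 10 were higher and 4 lower, BNIP3L among the latter (median 0.06). The autophagy receptor SQSTM1 had the smallest p at 0.70 ± 0.07 (limma adjusted p = 0.095; 0.0031 with the trend). In order of p, PINK1 (0.22 ± 0.07), OPTN (0.34 ± 0.12) and CALCOCO2 (0.20 ± 0.08) came next and passed neither fit. Among lysyl oxidases, LOXL3 stood at -0.22 ± 0.07 (adjusted p = 0.25), LOXL1 at -0.06 ± 0.14 and LOXL2 at -0.09 ± 0.15. LOXL4 read 4.60 and 4.41 in mock and 4.95 and 5.12 in treated cells (0.53 ± 0.11; adjusted p = 0.17, and 0.099 with the trend), opposite in sign to LOX. Fibronectin FN1 (0.37 ± 0.08) and EFEMP2, a matrix protein of elastic fibres (0.33 ± 0.08), were on the higher side as well, and FN1 passed with the trend (adjusted p = 0.031). BNIP3L, LOXL1, LOXL2 and, above, JMJD6 and ANGPTL4 fall outside the naming rule and were chosen after their values were seen.

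STC1, the relative of STC2 and itself a hypoxia target, read 4.09 and 4.01 in mock and 3.82 and 3.71 in treated cells (-0.28 ± 0.08; limma adjusted p = 0.22, and 0.40 with the trend). It was dim, and its treated arrays lay at or under the filter of 3.82. Of the other genes of the PAPP-A axis, PAPPA2 stood at 0.15 ± 0.07, IGFBP5 at -0.12 ± 0.07 and the growth factor receptor IGF1R at 0.23 ± 0.10, and none passed. STC2 and VEGFA are also known targets of ATF4, the transcription factor of amino acid and endoplasmic reticulum stress. The 9 other ATF4 targets tested went both ways, 7 lower and 2 higher (median -0.11). DDIT4 and VLDLR, given above, were the lowest. SESN2, a stress-induced inhibitor of mTORC1 (0.37 ± 0.08; adjusted p = 0.18, and 0.043 with the trend), and DDIT3, a pro-apoptotic factor (0.77 ± 0.26; 0.27 and 0.13), were the higher ones. DDIT3 ran from 0.45 without origamicin replicate 2 to 1.10 without origamicin replicate 1.

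**Figure D5:**
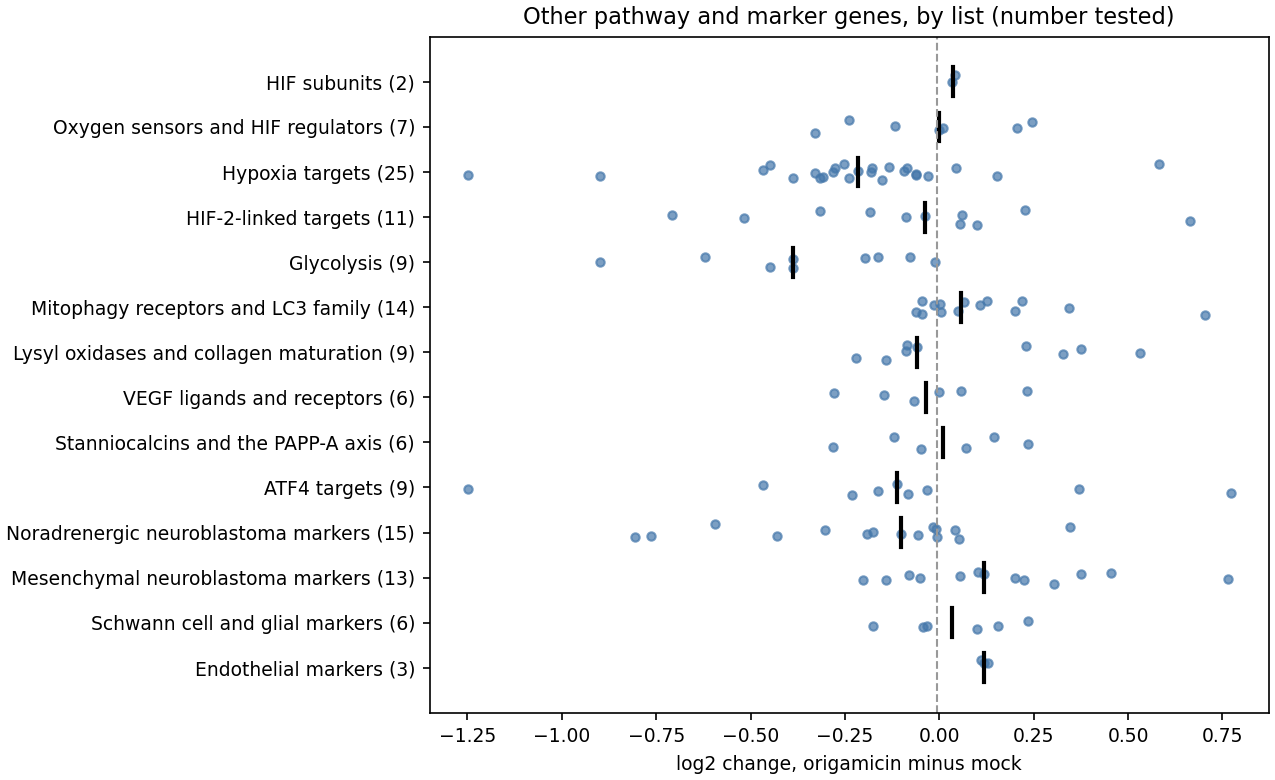
Log2 change (origamicin minus mock) of each tested gene of 14 gene lists, EPAS1, BNIP3, LOX, VEGFA and STC2 left out; black bars are list medians, the dashed line is the median over all genes tested, and vertical jitter within a list has no meaning. The hypoxia target list (median -0.22) and the glycolysis list (median -0.39), which share HK2, LDHA and PGK1, lie mostly below 0. HIF-2-linked targets and VEGF genes spread to both sides.

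The genes whose profile over the 4 arrays was nearest to that of EPAS1, by Euclidean distance after centring each gene on its mean, were KIT, a receptor tyrosine kinase (distance 0.03, log2 change -0.70), GLT8D2 (0.04, -0.69), SMIM10 (0.06, -0.64), CNN3-DT (0.07, -0.71) and SNAR-D (0.07, -0.69). Nearest to the mean profile of the 5 genes were OGDHL (0.02, -0.49), PXYLP1 (0.02, -0.47), the replicative helicase subunit MCM7 (0.02, -0.50), GLCCI1 (0.04, -0.49) and CREB5 (0.05, -0.50). GLT8D2 was dim: both its treated arrays, at 3.77 and 3.80, lay under the filter, so the size of its change is uncertain. None of these 10 is on the hypoxia lists. Over 4 arrays in 2 groups, such nearness mostly reflects a group difference of like size.

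Markers of the cells present were read beside these results. Of the 20 noradrenergic neuroblastoma markers, 15 were tested. On the 4 arrays DBH read 12.33 to 12.53, HAND2 11.23 to 11.34 and GATA3 11.09 to 11.12. TH, which encodes the rate-limiting enzyme of catecholamine synthesis, read 5.52 to 5.82 and INSM1 5.14 to 5.67, all above the filter of 3.82. Averaged over these 15, the log2 level was 9.44 to 9.48 on the mock arrays and 9.25 to 9.27 on the origamicin arrays. Of them 12 were lower (52.1% of all genes) and 3 higher, and none passed limma's adjusted threshold. With the trend 5 fell (2.16% of all genes): DDC (-0.59 ± 0.06), CHGB (-0.76 ± 0.08), CHGA (-0.80 ± 0.09), MAB21L1 (-0.43 ± 0.06) and ISL1 (-0.30 ± 0.07), with adjusted p from 0.0024 to 0.021. The 13 mesenchymal markers tested of 21 averaged 6.26 to 6.33 on the mock arrays and 6.42 to 6.50 on the origamicin arrays. Of these 9 were higher and 4 lower, and none passed limma's adjusted threshold. With the trend 4 rose (2.14% of all genes): FOSL1 (0.76 ± 0.07), VIM (0.45 ± 0.07), FN1 and SNAI2 (0.30 ± 0.08), with adjusted p from 0.016 to 0.046. The part of these marker differences in the lower values of EPAS1 and the hypoxia targets was not tested. ISL1, TH and INSM1, and the markers whose levels alone are given, were chosen after their values were seen.

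Endothelium and glia are other cell types that express EPAS1. Of 10 endothelial markers, 7 were named and only 3 tested. PECAM1 (3.47 to 3.81), TIE1 (3.48 to 3.74), KDR and EMCN (1.94 to 2.42) were read below the filter on all 4 arrays, and VWF, CLDN5 and ESAM had intervals that spanned 0. Of the 6 Schwann cell and glial markers tested, 3 were higher and 3 lower, their mean log2 level was 4.81 to 4.85 on the mock arrays and 4.82 to 4.92 on the origamicin arrays, and none passed either fit.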

How the data were processed

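RNA of 4 SH-SY5Y cultures was read on 1 array each. The authors deposited log2 expression per probe set; the submitters' processing notes list RMA and limma, and the genome build is not given in the sources used here. Array medians lay between 4.37 and 4.42, so values were used as deposited. Intensities have no counting depth, and the number of arrays limits the precision.

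A platform annotation named 1 gene for 16098 of 53617 probe sets, several for none, and left 37519 unnamed here; all identifiers matched RefSeq. The brightest probe set of a gene was kept, and genes whose mean was under the 40th percentile of all probe sets (3.82) were left out. The comparison used lmFit and eBayes of limma 3.58.1 (R 4.3.3; two-sided, no covariate), with Benjamini-Hochberg adjustment over all genes tested. The labels call the arrays biological replicates but name no separate passages, so a p-value covers only the variation seen among these arrays, which may be technical. The fit was tested on simulated data with set changes larger than that of EPAS1, so recovery of smaller changes was not tested.

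The 5 genes and all gene lists were chosen with earlier results of these data known. The naming rule took the 5 genes, every tested HIF subunit, regulator and VEGF gene, the 4 smallest p of each other list, and the 5 nearest profiles. Results were recomputed with a replicate block, without the filter, with a 60th percentile filter, equal medians, quantile normalization, cyclic loess, mean of probe sets, an intensity trend, robust eBayes, each array left out, and thresholds of 0.01 and 0.1.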

Additional observations from a re-analysis of the deposited data

How the results depend on the processing

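The differences of EPAS1, BNIP3, LOX, VEGFA and STC2 kept their sign under equal array medians, quantile normalization and cyclic loess. Under these settings they moved by less than the spread between replicates. Averaging over probe sets could not change them, because each of these genes has 1 named probe set. With single arrays left out, the log2 change ran from -0.72 to -0.65 for EPAS1, -0.51 to -0.47 for BNIP3, -0.53 to -0.37 for LOX, -0.41 to -0.31 for VEGFA and -0.46 to -0.36 for STC2. A replicate block leaves the change itself as it is; with it the SE was 0.07 for EPAS1 and 0 genes passed. Same-numbered arrays did not deviate together (r = -0.02), so no shared effect of the replicate number was seen. The labels state no pairing, and this value cannot tell whether the cultures were run in pairs.

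The count of genes past an adjusted p of 0.05 depended on the variance model and the filter. It was 0 of 11883 in the limma fit, 92 of 9269 with the 60th percentile filter and 511 of 11883 with an intensity trend. At an adjusted p under 0.1 it was 53 of 11883. The 10 lists other than the cell type markers, which include ATF4 targets, mitophagy and collagen genes, held 88 tested genes besides the 5. Of these, 0, 7, 17 and 4 passed in turn. The 60th percentile filter left out some of the 88, so the 7 are out of fewer genes. The 17 were 11 lower (2.16% of all genes) and 6 higher (2.14%). The 7 were 4 lower and 3 higher, and the 4 were 3 lower and 1 higher. The 7 and the 4 were all among the 17. Both counts stayed at 0 with the replicate block, no filter, equal medians, quantile normalization, cyclic loess, mean of probe sets and robust eBayes. The 0 at an adjusted p under 0.01 follows from the 0 at 0.05. Fits with an array left out have a single array in a group, so no count is read from them. With 2 arrays per group, small differences are hard to call.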

Other observations

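MIR210HG, the host transcript of the hypoxia-induced microRNA miR-210, was on none of the gene lists and was looked up after the other values had been seen. It read 5.60 and 5.69 on the mock arrays and 5.28 on both origamicin arrays. The log2 change was -0.36, given here without an SE or a test, so it is only a description. The probe set named MIR210 itself read 6.19 and 6.28 in mock and 6.54 and 6.24 in treated cells, and its groups overlapped. Each probe set has its own response, so the levels of the host transcript and the microRNA are not compared.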
